A study of Mus musculus with 6 samples.

Results

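Troponin genes were followed in C2C12 cells after knockdown of the long noncoding RNA H19. The 8 members are Tnnc1, Tnnc2, Tnni1, Tnni2, Tnni3, Tnnt1, Tnnt2 and Tnnt3, taken as the rows of the value table whose annotated symbol is a troponin gene. Each had 1 probe set with that single symbol, so the family made up 8 of the 21559 units tested. C2C12 is an established mouse myoblast line that fuses into myotubes when serum is lowered. The control group comprised 3 arrays of wild type C2C12 cells transfected with a control siRNA, and the other group 3 arrays of the same cells transfected with an siRNA specific for mouse H19. In both groups the cells had grown in 10% fetal bovine serum, were moved to 2% horse serum to differentiate, were transfected on day 1 of differentiation and gave total RNA 40 h later. The labels do not say whether replicates came from separate cultures, so the p-values reflect only array-to-array spread, which could be technical.

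Troponin is the calcium switch of the striated muscle thin filament. Troponin C binds calcium, troponin I holds back the interaction of actin with myosin until calcium binds, and troponin T fastens the complex to tropomyosin. Each subunit has isoforms for fast skeletal, slow skeletal and heart muscle, with Tnnc1 shared by slow skeletal and heart muscle. In embryonic skeletal muscle and in young myotubes Tnnt2, the heart isoform of troponin T, is also made, and it gives way to the skeletal isoforms as the muscle matures. The comparison asks which of these isoforms differ in level after H19 depletion in differentiating myotubes.

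The targeted transcript was lower throughout the H19 siRNA group. H19 had no probe set under its own symbol and was followed through the one annotated to Mir675, a microRNA it hosts, and Supt6. Its log2 value was 12.24 ± 0.03 in the control group and 10.34 ± 0.05 after H19 siRNA (mean ± SD over 3 arrays). This was a fall to 26.9% of control (log2 fold change -1.89), with a limma adjusted p of 1.80e-05. Across all rows Pearson's r between arrays ran from 0.9958 to 0.9975, with H19 siRNA replicate 2 lowest on average. The labels name no batch. Signals of different probe sets are not comparable with each other, so levels are compared only for the same gene between arrays.

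Of the 8 troponin genes 1 passed the threshold, a limma adjusted p under 0.05 over all 21559 units, and it rose. This was Tnnt2, and 0 members fell. At an unadjusted limma p under 0.05 there were 4 members, Tnnt2, Tnnc1, Tnni1 and Tnnt3, all higher with H19 siRNA. Over all units 0.125% were called higher and 0.0742% lower, and 6.61% were higher and 4.25% lower at an unadjusted p under 0.05. The H19 siRNA arrays all exceeded the control arrays for 5 members (Tnnt2, Tnnc1, Tnni1, Tnni3 and Tnnt3) and all lay under them for 0, against 10.5% and 7.09% of all units. These shares include dim units, whereas the 10779 units above the median intensity held 7 members. In a fit of these units alone, 1894 of them, 5 being members, had an unadjusted limma p under 0.05 in either direction. The median log2 fold change was 0.11 over the 8 members and 0.01 over all units, so the differences within the family were small. All 8 members averaged above 5.89, the 95th percentile of 1194 odorant and vomeronasal receptor genes, which belong to sensory neurons and served as a guide to background. Tnni3 lay nearest to it at a mean of 7.06. Of all 21559 units 14911 lay above this guide, so passing it does not by itself show that a gene is expressed.

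**Figure D1:**
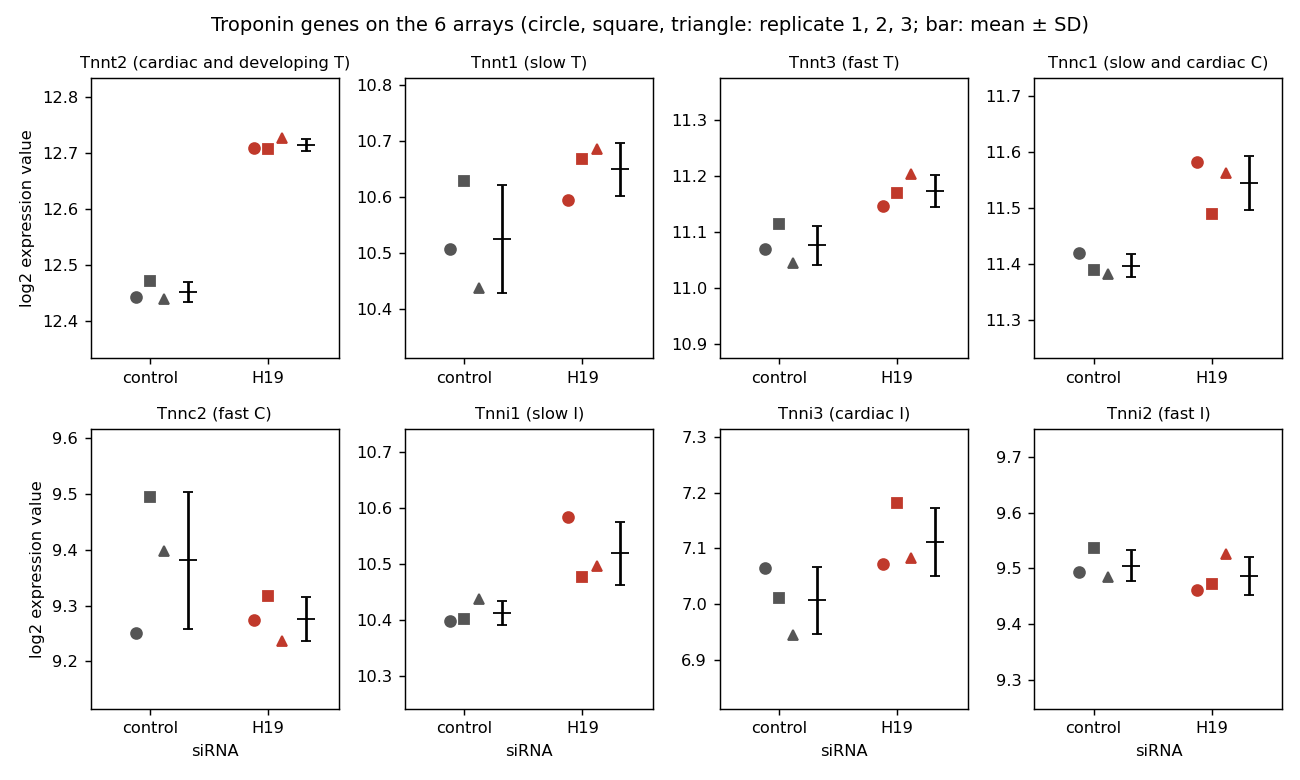
Log2 expression values of the 8 troponin genes on 3 control siRNA arrays (grey) and 3 H19 siRNA arrays (red), each panel spanning the same height on the log2 scale, with mean ± SD beside the points. The Tnnt2 groups are 0.24 apart at their nearest arrays, whereas the Tnnc2, Tnni2 and Tnnt1 groups overlap.

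Tnnt2 showed the largest difference and the narrowest spread of the family. Its 3 control values were 12.44, 12.47 and 12.44, and its 3 values after H19 siRNA were 12.71, 12.71 and 12.73. The groups stood 0.24 apart on the log2 scale at their nearest arrays, and the 3 arrays of a group spanned 0.03 with control and 0.02 with H19 siRNA. Tnnt2 rose by 0.26 on the log2 scale (SE 0.03, 95% interval 0.19 to 0.34), or 1.20-fold, with a limma adjusted p of 0.0425. Its p ranked 38 among all units, near the end of the 43 units called. The call was lost after centring each array on its median (limma adjusted p = 0.0976), over all rows of the table (0.129) and in each fit that left out 1 array, where adjusted p ran from 0.0969 to 0.262 while the fold change stayed between 0.26 and 0.27.

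The adjusted p of Tnnt2 was lowest under another variance model, which left the fold change as it was. With a variance that follows the intensity and is robust to outlying genes, the limma adjusted p of Tnnt2 was 4.10e-06, and 1.12% of all units were called higher. In the same model with each array left out in turn, an alternative chosen after the data were seen, Tnnt2 passed in 6 of 6 fits with adjusted p from 2.43e-05 to 7.94e-05. The rise therefore passed with any 5 of the 6 arrays under this model and with none of these subsets under the plain one.

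**Figure D2:**
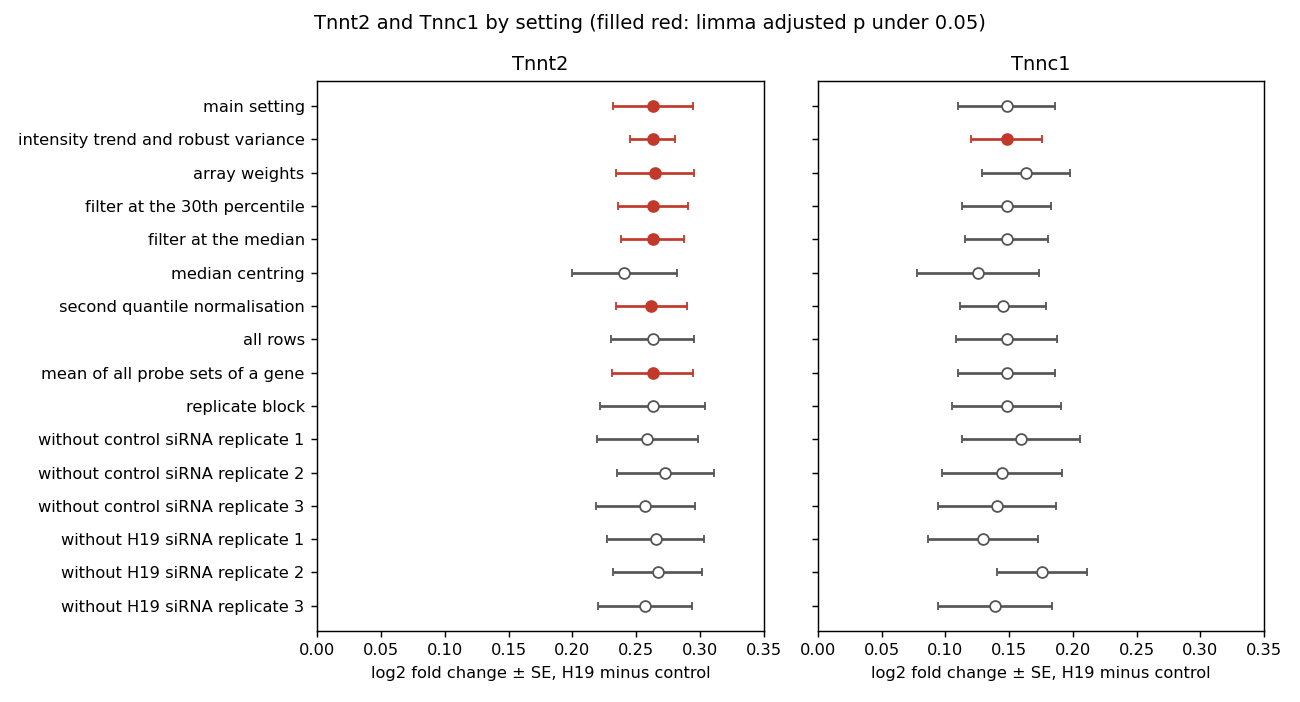
Log2 fold change ± SE (x axis) of Tnnt2 and Tnnc1 in the main setting and in 15 alternatives (rows), filled red where the limma adjusted p was under 0.05. The Tnnt2 estimates lie between 0.24 and 0.27 and those of Tnnc1 between 0.13 and 0.18, while the calls differ by setting.

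The promoter bases of Tnnt2 are shown because it is the member that passed, beside those of Tnnc1 and Tnnc2, whose differences went opposite ways. RefSeq promoter windows were found for 6 of the 8 members. Each window printed holds the 250 bases before an annotated start, read 5′ to 3′ on the strand of the gene, and of 2 listed starts of Tnnt2 the upstream one is given. Capitals mark E-boxes (CANNTG, the motif bound by MyoD and myogenin) and M-CAT motifs (CATTCC, bound by TEAD factors), searched on both strands.
Tnnt2 (GRCm38.p6, chr1:135836084-135836333, + strand): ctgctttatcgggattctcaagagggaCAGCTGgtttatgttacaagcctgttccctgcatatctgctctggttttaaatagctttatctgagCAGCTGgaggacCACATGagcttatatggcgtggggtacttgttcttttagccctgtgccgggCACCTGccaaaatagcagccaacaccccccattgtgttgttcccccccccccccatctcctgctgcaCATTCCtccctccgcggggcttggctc
Tnnc1 (GRCm38.p6, chr14:31208062-31208311, + strand): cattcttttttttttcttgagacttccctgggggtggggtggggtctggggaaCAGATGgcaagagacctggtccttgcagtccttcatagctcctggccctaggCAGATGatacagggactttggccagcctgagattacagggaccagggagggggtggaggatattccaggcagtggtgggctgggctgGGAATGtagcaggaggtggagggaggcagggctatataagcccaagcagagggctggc
Tnnc2 (GRCm38.p6, chr2:164779735-164779984, - strand): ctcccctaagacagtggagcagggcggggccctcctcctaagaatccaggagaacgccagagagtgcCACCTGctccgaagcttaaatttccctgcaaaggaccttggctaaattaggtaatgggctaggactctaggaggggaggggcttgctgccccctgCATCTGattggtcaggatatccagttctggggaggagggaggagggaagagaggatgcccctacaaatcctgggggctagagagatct
The Tnnt2 window held 4 E-boxes and 1 M-CAT motif, Tnnc1 held 2 and 1, and Tnnc2 held 2 and 0, and no matches overlapped. The window of the other listed start of Tnnt2 held 1 E-box and 0 M-CAT motifs. At least 1 E-box was present in 66.2% and an M-CAT motif in 12.6% of 32851 such windows, so an E-box is common in a window of this length. An exact match to 1 strict consensus of the MEF2 binding motif was found in 2.92% of windows and in none of the 8 windows of troponin genes. Looser forms of that motif were not searched, so such sites may be present. A match describes letters only, and no match says only that these letters are not in this window.

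The other troponin T genes were higher by smaller amounts. Tnnt1, the slow skeletal isoform, read 10.51, 10.63 and 10.44 in the control group and 10.59, 10.67 and 10.69 after H19 siRNA. Its groups overlapped, because control replicate 2 lay above H19 siRNA replicate 1. The difference of 0.12 (SE 0.06, 95% interval -0.01 to 0.26) had a limma adjusted p of 0.495, and without control replicate 3 it was 0.08. Tnnt3, the fast skeletal isoform, read 11.07, 11.11 and 11.05 in the control group and 11.15, 11.17 and 11.20 after H19 siRNA. Its groups did not overlap but stood only 0.03 apart, and the difference was 0.10 (SE 0.04, 95% interval 0.01 to 0.18, limma adjusted p = 0.408). Probe sets of these arrays sum over a gene, so splice forms of troponin T, for which the family is known, were not resolved.

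The calcium-binding subunits differed in opposite directions, neither past the threshold. Tnnc1, the slow skeletal and heart isoform, read 11.42, 11.39 and 11.38 in the control group and 11.58, 11.49 and 11.56 after H19 siRNA. All 3 H19 siRNA arrays were higher than all 3 control arrays, with replicate 2 the lowest of them. The difference was 0.15 (SE 0.04, 95% interval 0.06 to 0.24), or 1.11-fold, with a limma adjusted p of 0.248. With the intensity trend and robust variance the adjusted p of Tnnc1 was 0.0137, the only other call of a member among the 15 alternatives. In that model it passed in 3 of 6 fits that left out an array, with adjusted p up to 0.0830.

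Tnnc2, the fast skeletal troponin C, had the widest spread of the family in the control group. It read 9.25, 9.49 and 9.40 in the control group and 9.27, 9.32 and 9.24 after H19 siRNA. Control replicate 1 lay among the H19 siRNA arrays while the other control arrays lay above them. The difference of -0.10 (SE 0.06, 95% interval -0.26 to 0.05) had a limma adjusted p of 0.615, and without an array it ran from -0.17 to -0.05.

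Among the inhibitory subunits the slow and heart isoforms were higher on every H19 siRNA array and the fast isoform was not. Tnni1, the slow skeletal isoform, read 10.40, 10.40 and 10.44 in the control group and 10.58, 10.48 and 10.50 after H19 siRNA. Replicate 1 of the H19 siRNA arrays stood above the others, and the estimate was 0.11 (SE 0.04, 95% interval 0.01 to 0.20, limma adjusted p = 0.414), or 0.07 without that array. Tnni3, the heart isoform, read 7.07, 7.01 and 6.95 in the control group and 7.07, 7.18 and 7.08 after H19 siRNA. Its groups were separated by only 0.00646, and the difference of 0.10 (SE 0.05, 95% interval -0.01 to 0.22) had a limma adjusted p of 0.499.

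Tnni2, the fast skeletal troponin I, had the smallest difference of the 8. It read 9.49, 9.54 and 9.48 in the control group and 9.46, 9.47 and 9.53 after H19 siRNA, and the groups overlapped. The difference of -0.02 had a 95% interval from -0.10 to 0.07 (limma adjusted p = 0.889), and without an array it ran from -0.04 to -0.0021.

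**Figure D3:**
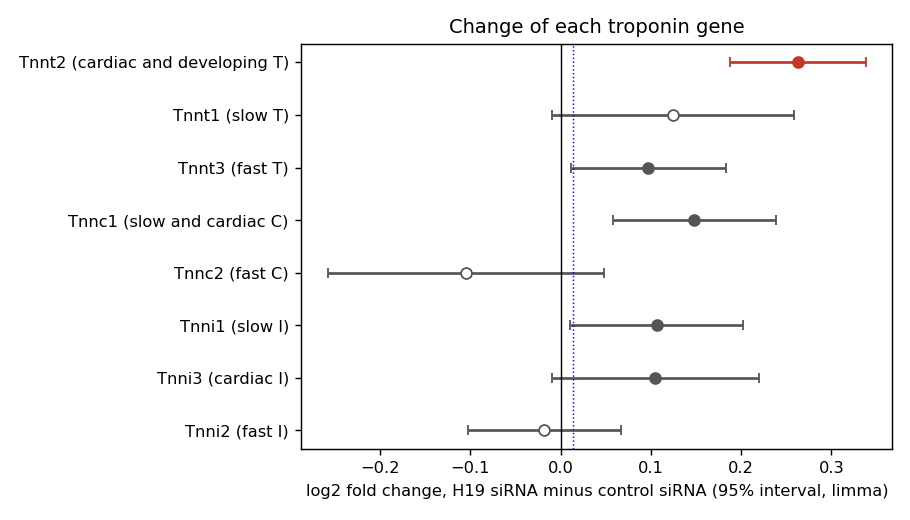
Log2 fold change of each troponin gene (x axis, H19 siRNA minus control siRNA) with its 95% interval from limma, red where the adjusted p was under 0.05 and filled where the groups do not overlap. The dotted line is the median of all units, 0.01. Of the fast isoforms Tnnc2 at -0.10 and Tnni2 at -0.02 lie below 0, and the other 6 genes lie between 0.10 and 0.26.

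Sorted by muscle type, the slow isoforms (Tnnc1, Tnni1 and Tnnt1) had log2 fold changes from 0.11 to 0.15 with a median of 0.12. The heart isoforms (Tnnc1 again, Tnni3 and Tnnt2) ran from 0.10 to 0.26 with a median of 0.15. The fast isoforms (Tnnc2, Tnni2 and Tnnt3) ran from -0.10 to 0.10 with a median of -0.02. Thus 5 of 5 slow and heart genes had a positive fold change against 1 of 3 fast genes, where 58% of all units were positive. These counts describe 8 genes and carry no test.

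Shifts between isoforms of one subunit were compared within each array, as the log2 difference of the 2 genes, which no constant shift of an array can change. Of the 7 pairs, 4 were separated between the groups. They were Tnnc1 against Tnnc2, Tnni1 against Tnni2, and Tnnt2 against Tnnt3 and against Tnnt1. How often pairs of other genes separate was not measured. With 3 arrays a group the exact two-sided permutation test has a smallest possible p of 0.1, which these 4 reached, with an adjusted p of 0.175 over the 7 pairs, so none could pass the threshold.

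Tnnt2 shifted against both other troponin T genes on every H19 siRNA array. Relative to the control mean, the difference of Tnnt2 minus Tnnt3 was -0.0018, -0.02 and 0.02 in the control group and 0.19, 0.16 and 0.15 in the H19 siRNA group. The groups were 0.13 apart at their nearest arrays, and the mean shift was 0.17. Tnnt2 minus Tnnt1 shifted by 0.14, with the groups 0.04 apart. Tnnt1 minus Tnnt3, the slow against the fast isoform, shifted by 0.03 with overlapping groups (exact permutation p = 0.6). Within troponin T the arrays of the groups were thus separated for Tnnt2 against either skeletal isoform and mixed for slow against fast.

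In troponin C and I the slow isoform stood higher against the fast one on every H19 siRNA array, by small margins. Tnnc1 minus Tnnc2 shifted by 0.25, the largest mean shift of the 7 pairs, but control replicate 1 at 0.15 nearly met H19 siRNA replicate 2 at 0.16. Tnni1 minus Tnni2 shifted by 0.12, from -0.0025, -0.04 and 0.05 in the control group to 0.21, 0.10 and 0.06 in the H19 siRNA group. Those groups lay 0.02 apart, and the shift was 0.08 without H19 siRNA replicate 1. Tnni3 minus Tnni2 shifted by 0.12 with overlapping groups (exact permutation p = 0.2), or by 0.08 without H19 siRNA replicate 2. Tnni1 minus Tnni3, slow against heart, shifted by 0.0016 (exact permutation p = 1).

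**Figure D4:**
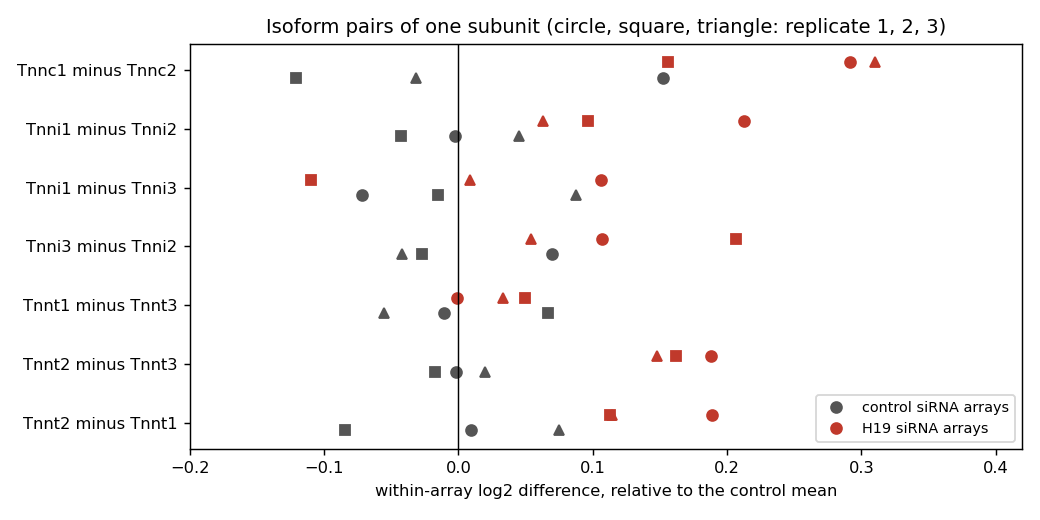
Within-array log2 difference of 2 isoforms of one subunit, relative to its mean on the control arrays (x axis), for 7 pairs (rows), on control siRNA arrays (grey) and H19 siRNA arrays (red). The Tnnt2 minus Tnnt3 points of the H19 siRNA arrays lie between 0.15 and 0.19, apart from those of the control arrays, while the Tnni1 minus Tnni3 and Tnnt1 minus Tnnt3 points mix.

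The troponin I and T genes lie in neighbouring pairs in the genome, and the pairs were read side by side. In the RefSeq annotation of GRCm38.p6, Tnni1 and Tnnt2 are on chromosome 1 with 1 protein-coding gene, Lad1, between them, and Tnni3 and Tnnt1 are adjacent on chromosome 7. Tnni2 and Tnnt3 are on the same chromosome with Lsp1 between them, and only Mrpl23 is annotated as protein-coding between Tnnt3 and H19. The neighbours of H19 differed by -0.02 (Tnni2) and 0.10 (Tnnt3). The Tnni1 and Tnnt2 pair differed by 0.11 and 0.26, and the Tnni3 and Tnnt1 pair by 0.10 and 0.12, all on the log2 scale. No troponin gene next to H19 passed the threshold.

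The thin filament proteins that troponin works with had a median close to that of all units. Their fold changes were positive for 12 and negative for 11, where 58% of all units were positive. Only at an unadjusted p under 0.05 or by separated arrays was a larger share of them higher. Of 23 measured partners (actins, tropomyosins, nebulin family, caps and their stabilisers) 0 passed in limma in either direction, and the median log2 fold change was 0.0072. At an unadjusted limma p under 0.05, 5 were higher and 0 lower, against 6.61% and 4.25% of all units. This list and those below were chosen with earlier results of these data known, so their counts are descriptive only. The H19 siRNA arrays all exceeded the control arrays for 7 partners and all lay under them for 1, against 10.5% and 7.09% of all units. The mean level of the list ran from 9.879 to 9.912 with control siRNA and from 9.926 to 9.931 with H19 siRNA. The smallest p belonged to Tmod1, a cap of the pointed end of actin filaments, at 0.13 (SE 0.03, limma adjusted p = 0.253). Acta1, skeletal actin, differed by 0.10, Xirp1, an actin-binding protein, by 0.16 and Nebl, nebulette, by 0.19. Tmod1 and these 3 genes were higher on every H19 siRNA array. The difference of Nebl was 0.12 without H19 siRNA replicate 2 and 0.08 as the mean of all its probe sets.

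Genes of muscle type and stage gave mixed counts beside the troponins. Over all units 6.61% were higher and 4.25% lower at an unadjusted limma p under 0.05. Among 12 fast contractile genes Mylk2, the kinase of skeletal myosin light chain, rose by 0.39 (SE 0.04, limma adjusted p = 0.0392), and the median was 0.02. Without any 1 array other than H19 siRNA replicate 2 the call of Mylk2 was lost, with limma adjusted p up to 0.218, and it was also lost after median centring (0.0501) and over all rows (0.123). Actn3, fast alpha-actinin, at 0.15, Mylpf, fast regulatory light chain, at 0.13 and Atp2a1, the fast calcium pump, at 0.09 did not pass. Of 10 slow contractile genes 0 passed in limma, 0 were higher and 1 lower at an unadjusted p under 0.05, with a median of 0.05. Their fold changes were positive for 8 and negative for 2, and the groups were separated upward for 0 and downward for 1. Casq2, the calcium-storing calsequestrin of slow and heart muscle, had the smallest p there at -0.15 (limma adjusted p = 0.395), or -0.09 without H19 siRNA replicate 2, and Myh7b, Myoz2 and Csrp3 had overlapping groups. Of 9 genes of developing muscle 0 passed in limma, 5 were higher and 1 lower at an unadjusted p under 0.05, and the median was 0.10. They included Cdh15, M-cadherin, at 0.28 (limma adjusted p = 0.0519) and Mybph, a myosin-binding protein, at 0.16. Chrnd and Chrng, subunits of the fetal acetylcholine receptor, differed by 0.19 and 0.16. The 1 lower gene was Myh8, a myosin heavy chain of developing muscle, at -0.11, and it lay lower on every H19 siRNA array. Myh3, another such myosin, differed by -0.03 with overlapping groups.

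**Figure D5:**
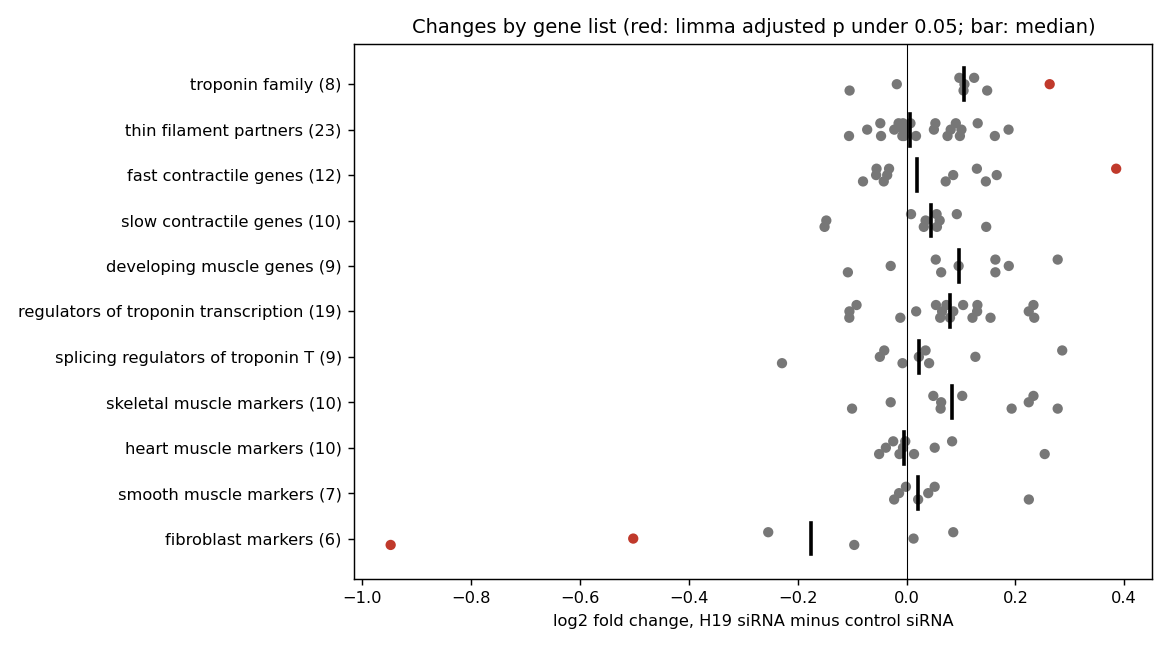
Log2 fold change (x axis, H19 siRNA minus control siRNA) of each measured gene of the troponin family and of 10 lists (rows, number of genes in brackets), with the list median as a bar and genes past the limma threshold in red. The troponin median is 0.11, that of thin filament partners 0.0072 and that of fibroblast markers -0.18.

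Factors that act on troponin genes were also measured. Their counts stand beside 6.61% of all units higher and 4.25% lower at an unadjusted limma p under 0.05. Of 19 measured regulators of troponin transcription 0 passed in limma, 8 were higher and 1 lower at an unadjusted p under 0.05, and the median was 0.08. Myog and Myod1, master regulators of muscle differentiation, which are counted among the skeletal muscle markers too, differed by 0.22 and 0.23 (limma adjusted p = 0.0779 and 0.0965). Mef2d, a MEF2 factor, differed by 0.23 and Ppargc1a, a transcriptional coactivator, by 0.15. The 1 lower regulator was Mef2c, another MEF2 factor, at -0.10, and it lay lower on every H19 siRNA array. Among 9 splicing regulators of troponin T transcripts 0 passed in limma, 2 were higher and 1 lower at an unadjusted p under 0.05, and the median was 0.02. Rbm24, a muscle splicing factor, differed by 0.29, Celf2 by 0.13, Celf1 by -0.04, and Mbnl3, a muscleblind protein, by -0.23.

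The 5 genes whose values on the 6 arrays lay nearest to those of Tnnt2, each centred on its control mean, were Klf10, Cap2, Ddx58, Sgca and Cdh15, of 17064 candidates. Their root mean square differences from Tnnt2 ran from 0.02 for Klf10 to 0.03 for Cdh15 on the log2 scale. Klf10, a transcription factor induced by TGF-beta, rose by 0.26 (limma adjusted p = 0.0425, or 0.0945 to 0.278 with 1 array left out, 0.102 after median centring and 0.129 over all rows). Cap2, an actin-regulating protein, Ddx58, a sensor of viral RNA, and Sgca, a sarcoglycan of the muscle membrane, differed by 0.25, 0.26 and 0.27 without passing.

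Cell type markers were read beside the troponins, and 2 of them, both from the fibroblast list, passed the threshold. The labels name only C2C12 cells, so a marker does not show that cells of its type were present. Over all units 6.61% were higher and 4.25% lower at an unadjusted limma p under 0.05. All 10 skeletal muscle markers were above the background guide, and their mean log2 level ran from 10.73 to 10.76 in the control group and from 10.82 to 10.88 in the H19 siRNA group. Their median fold change was 0.08, with 0 past the limma threshold and 4 higher and 1 lower at an unadjusted p under 0.05. Higher were Cdh15, Myog and Myod1, named above, and Mymk, the fusion protein myomaker, at 0.19. Lower was Ttn, titin, at -0.10, which lay under the control arrays on every H19 siRNA array. Cdh15, Chrna1 and Myh3 are also counted among the genes of developing muscle. Of 6 fibroblast markers 2 fell, Dcn by 0.50 and Lum by 0.95 on the log2 scale (limma adjusted p = 0.00727 and 0.0227). At an unadjusted p under 0.05 there were 4 lower and 1 higher, since Pdgfra at -0.25 and Col3a1 at -0.10 lay lower on every H19 siRNA array and Postn at 0.09 higher, while Col1a1 at 0.01 overlapped. The mean level of the fibroblast list ran from 10.68 to 10.70 with control siRNA and from 10.34 to 10.45 with H19 siRNA. Leaving out any 1 array other than H19 siRNA replicate 2 lost both calls, with limma adjusted p up to 0.0774 for Dcn and 0.143 for Lum, and the call of Lum was also lost over all rows (0.0866). The part of these markers in the rise of Tnnt2 was not tested, and in bulk RNA fewer cells of a type and less RNA per cell cannot be told apart. Of 10 heart muscle markers 5, Nppa, Myl7, Tbx5, Pln and Ryr2, lay at or below the background guide, 0 passed in limma, 1 was higher and 0 lower at an unadjusted p under 0.05, and the median was -0.0044. The mean level of this list ran from 6.45 to 6.50 with control and from 6.44 to 6.58 with H19 siRNA. Of 7 smooth muscle markers 0 passed in limma, with 1 higher and 0 lower at an unadjusted p under 0.05 (Lmod1 at 0.22) and a median of 0.02. Of 9 macrophage and endothelial markers 0 passed in limma and 1, Cd68 at -0.19, was lower at an unadjusted p under 0.05, with 7 at or below the background guide. Of 5 adipocyte markers 0 passed and 0 reached an unadjusted limma p under 0.05, and Adipoq and Fabp4 lay at or below the guide.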

How the data were processed

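Per the submitters' processing notes, the authors ran RMA in Affymetrix Expression Console, and the deposited table holds 1 log2 value for each probe set and array. RMA corrects background, normalises arrays by quantiles and summarises probes, which compresses small differences near background. Its version is not given in the sources used here. There were 35556 probe sets on 6 arrays, with medians between 6.73 and 6.78. Scanner intensities were not used here.

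Gene symbols came from GEO's platform annotation. A gene with several probe sets was represented by the one with the highest mean, and those with several symbols were kept without a name, which gave 21559 units. Each troponin gene had 1 probe set.

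The 2 groups were compared two-sided over all units with limma 3.58.1 (lmFit, then eBayes, under R 4.3.3), without covariates or a filter, and p-values were adjusted by the Benjamini-Hochberg method. The fit was tested on simulated data. Shifts between isoforms were tested by exact permutation of the 6 arrays. Genes were named by a rule (all 8 members, the targeted transcript, the 5 genes nearest to Tnnt2, and up to 4 genes with the smallest p of each list). Mef2c, Myh8, Myh3 and Ttn were named outside this rule, because their differences were negative. The members and the 12 lists were chosen with earlier results of these data known. Promoter sequences are from RefSeq on GRCm38.p6, whereas the value table names no genome build. Alternatives were the variance model, array weights, filters, scaling, the units tested, the replicate number as a block and leaving out each array.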

Additional observations from a re-analysis of the deposited data

How the results depend on the processing

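All 8 troponin genes kept the direction of their difference under every alternative that could be run for them, which excludes the filter at the median for Tnni3, a probe set below it. The calls did change. Of the 8 members, limma called 2 with an intensity trend and robust variance, and 0 after median centring (2 members with an unadjusted p under 0.05), over all rows of the table (4) and with the replicate number as a block (2). Without each array in turn it called 0 to 0 members, with 2 to 4 at an unadjusted p under 0.05. The count of all units called, 43 in the main setting, was 435 with the intensity trend, 70 with array weights, 111 above the 30th percentile of intensity, 266 above the median intensity, 11 over all rows, 3 with the replicate block, and 1 to 21 without each array. The labels do not say whether same-numbered arrays were paired. Deviations of same-numbered arrays correlated at 0.0012, -0.07 and -0.11, which shows no strong effect shared by a number but cannot settle the pairing. Under the block limma called none of Tnnt2 and Klf10 (adjusted p = 0.326 each), Mylk2 (0.233), Dcn (0.135) and Lum (0.133). The shift of Tnni1 minus Tnni3 ran from -0.0506 to 0.0575 without each array, and that of Tnnt1 minus Tnnt3 from -0.000643 to 0.0604, so both changed sign. The other 5 pairs kept theirs. For the 38 other transcripts recomputed (a step added after seeing the data), 562 of 565 values kept the direction, and 30 lost and 43 gained a call. The 3 others belonged to Col1a1, which was -0.0095 after median centring and ran from -0.0257 to 0.0420 without each array. Genes named only for a level at or below the background guide were not recomputed, nor were Mef2c, Myh8, Myh3 and Ttn. The higher side held 27 of 43 calls in the main setting and 19 of 36 after median centring. A fit that leaves out an array has fewer degrees of freedom, and 3 arrays a group limit the precision of differences as small as these.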
